A study of Mus musculus with 6 samples.

Results

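Kinesins and dyneins are the motor proteins that carry cargo along microtubules, and their genes were examined in the ventral lumbar spinal cord of SOD1G93A mice, which carry a mutant human superoxide dismutase 1 transgene and model amyotrophic lateral sclerosis. Genes named Kif or Klc with a number, or with a symbol that starts with Dync, Dynll, Dynlt or Dctn, were taken. Of the 28162 genes in the deposited table, 69 carry such a symbol. The 61 with a mean of at least 10 normalized counts over all 6 libraries are described. Kifc1, Kifc2 and Kifc3 do not match and are not among them. Kifc2 and Kifc3 were placed in a list of motor adaptors and regulators, and Kifc1 in a list of proliferation genes. The 8 below that level were Kif14, Kif18b, Kif19b, Kif28, Dynlt2a1, Dynlt2a2, Dynlt4 and Dynlt5. Kif2c, with a mean of 10.9, lay just inside the limit, and Kif14, with 8.62, just outside. All 61 passed the filter of the test across genes.

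Both groups carried the SOD1G93A genotype. The mice had an intrathecal injection of adeno-associated virus (AAV) at day 74 of age, and the cord was collected at day 104. The vector encoded green fluorescent protein in the control group (AAV-GFP, 3 libraries) or neuron-derived neurotrophic factor (AAV-NDNF, 3 libraries), a secreted glycoprotein. The vector promoter, the cells it entered and the sex of the animals are not stated in the sources used here. Without mice lacking the SOD1 transgene, no effect of the disease itself can be read from these libraries. The question put to them here is whether NDNF delivery went with a change in the transcripts of axonal motors or of mitotic kinesins.

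A motor neuron keeps its cell body in the ventral horn and its synapses in muscle, so it depends on long-range transport. Kinesins of the kinesin-1, kinesin-2 and kinesin-3 families move mitochondria, vesicles and cytoskeletal proteins towards the synapse. Cytoplasmic dynein 1, with its activating complex dynactin, carries signalling endosomes and worn organelles back to the cell body. Mutations of KIF5A and DCTN1 occur in human motor neuron disease, and DYNC1H1 mutations in spinal muscular atrophy of the lower limbs. Another set of kinesins builds the mitotic spindle and completes cell division. Neurons do not divide, but bulk tissue does not show whether these transcripts came from dividing cells.

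Promoter sequences of these genes show a difference between transport motors and mitotic kinesins that is independent of the read counts. Promoters of many cell-cycle genes hold a cell cycle genes homology region (CHR), TTTGAA, often close to a CCAAT box. RefSeq promoters (GRCm38.p6) of 300 bases, from 250 before to 50 after the gene start, were found for 43 of the 61 genes, some with more than 1 start, and searched for TTTGAA or its complement TTCAAA and for CCAAT or ATTGG, on either strand. Matches of the 2 motifs can overlap by 1 base at most. The CHR letters were in a promoter of 7 of 8 mitotic kinesins (87.5%), of 2 of 18 axonal motors (11.1%, Dctn1 and Kif1a) and of 20.2% of all 27025 genes. The RefSeq start can differ from the start of the gene in GENCODE M21, from which the coordinates here are taken: for Kif2c it lies 3867 bases inside the gene. Among genes whose 2 starts lie within 500 bases, the letters were in 6 of 7 mitotic kinesins and 0 of 16 axonal motors. In Kif11 and Kif15 they began 19 bases before the start and in Kif22 17 bases before it. In Kif20b, Kif23 and Kif4 they lay only after the start, from bases 8 and 14, base 3 and base 20. In Kif2c they began 103 bases before its RefSeq start. Kif18a was the mitotic kinesin without them. The CCAAT letters were in a promoter of 4 of 8 mitotic kinesins (50%), 6 of 18 axonal motors (33.3%) and 41.1% of all genes. A set of 3 stretches of 150 bases, each ending at the base before the RefSeq start, is shown to compare the classes, with CHR and CCAAT letters in capitals: a mitotic kinesin with both motifs, then an axonal kinesin and a dynein subunit with neither motif. Kif11 lies on the plus strand at chr19:37376232-37376381, Kif5c on the plus strand at chr2:49619136-49619285 and Dync1i1 on the plus strand at chr6:5725489-5725638.
Kif11: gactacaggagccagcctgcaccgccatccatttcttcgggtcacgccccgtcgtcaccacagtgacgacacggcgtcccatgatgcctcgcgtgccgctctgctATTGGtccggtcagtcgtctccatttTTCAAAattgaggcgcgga
Kif5c: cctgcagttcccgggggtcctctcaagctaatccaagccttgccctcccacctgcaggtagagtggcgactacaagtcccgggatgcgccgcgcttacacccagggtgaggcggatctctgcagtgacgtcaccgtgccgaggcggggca
Dync1i1: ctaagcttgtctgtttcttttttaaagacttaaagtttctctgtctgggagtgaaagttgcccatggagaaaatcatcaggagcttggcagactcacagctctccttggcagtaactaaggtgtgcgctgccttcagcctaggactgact
In Kif11 the reversed CCAAT letters precede the reversed CHR letters. A match of letters is a description and not a mapped binding site.

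The libraries held between 15335789 and 20060987 reads assigned to genes, of which 5.28% to 7.94% came from mitochondrially encoded genes. Ndnf, the delivered gene, stood at 171.4, 128.0 and 158.1 normalized counts in AAV-GFP libraries 1 to 3 and at 5286, 7077.1 and 673.7 in AAV-NDNF libraries 1 to 3, so that AAV-NDNF 3 held the least of the treated libraries. The labels call the libraries biological replicates. Motor neuron markers such as Chat, Isl1 and Mnx1 were present in every library, and the summed level of 8 such markers was 9969 to 12070 in AAV-GFP and 10365 to 11665 in AAV-NDNF. The summed level of 10 microglial markers was 16975 to 17579 in AAV-GFP and 12307 to 14021 in AAV-NDNF, and 10 of 10 had a lower mean log2 value after AAV-NDNF (7 with an unadjusted limma p under 0.05, none called). Astrocyte markers had a lower mean log2 value in 7 of 7 (1 with an unadjusted limma p under 0.05). Over all genes, 3.53% were lower with an unadjusted limma p under 0.05, and 50.1% had a log2 fold change above 0. AAV-GFP 2 stood apart from the other libraries in several marker lists. Dorsal horn neuron markers summed to 689.9 there and to 1335 to 2715 elsewhere, and oligodendrocyte markers to 699140 there and to 504977 to 563952 elsewhere. Astrocyte markers summed to 206254 there and to 139644 to 165747 elsewhere. Gfap, the astrocyte marker with an unadjusted limma p under 0.05, had 98535.8, 128814 and 98167.7 in AAV-GFP libraries 1 to 3. In bulk tissue, fewer cells of a type and less RNA per cell cannot be told apart. The part of cell composition in the motor results was not tested.

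No motor gene passed the test for a difference between AAV-NDNF and AAV-GFP. Below, values are normalized read counts in libraries 1, 2 and 3 of a group, log2 fold changes set AAV-NDNF against AAV-GFP after adding 1 to each value, and ± gives the SD of 3 libraries. The test was limma across 17480 genes, with Benjamini-Hochberg adjustment and a threshold of 0.05. It called 0 of the 61 motor genes and 0 of all genes (0%), as did edgeR's quasi-likelihood test (0%). Without AAV-GFP 2 limma called 43 genes, without AAV-NDNF 3 it called 11 and without AAV-NDNF 1 it called 1, none of them a motor gene. An unadjusted p under 0.05 was given to 0 motor genes by either tool, against 4.68% of all genes by limma (1.15% higher and 3.53% lower after AAV-NDNF) and 4.6% by edgeR. Without AAV-NDNF 1 it was given to 6 motor genes, against 8.78% of all genes. Adjusted limma p-values of the motor genes were 0.997 to 0.998. In the authors' deposited table, 54 genes have an adjusted p under 0.05 and 0 of them is a motor gene.

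The median log2 fold change over the 61 was 0.01, from −0.69 for Dynlt1f to 0.58 for Kif24, against 0.00 over all genes. The upper end depended on single libraries: Kif24 was 0.0138 without AAV-GFP 3 and 1.03 without AAV-GFP 1. Dynlt1f, at low means of 39.0 in AAV-GFP and 23.1 in AAV-NDNF, ran from −1.01 to −0.47 on leaving out a library. The log2 fold change was above 0 for 32 motor genes and below 0 for 29, and 50.1% of all genes had a log2 fold change above 0. The 95% confidence interval lay within a doubling or halving for 51 of 61 motor genes, against 78.4% of all genes. The groups did not overlap for 5 of the 61 (8.20%), against 9.75% of all genes. In 4 of them, Dync1i1, Dync1li1, Klc2 and Kif20b, all AAV-NDNF libraries were above all controls (4.26% of all genes), and in Kif20a all were below (5.5% of all genes).

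**Figure D1:**
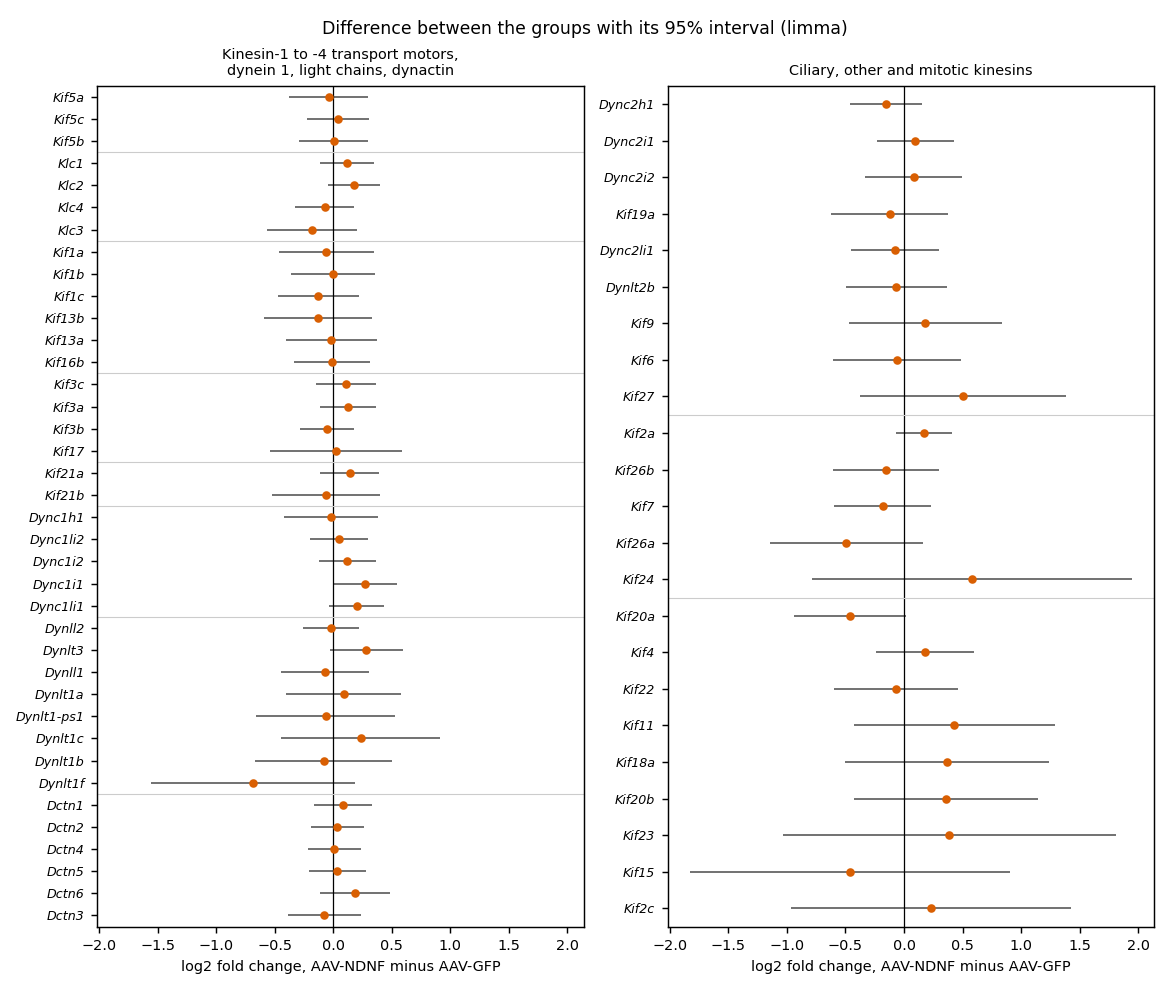
Log2 fold change, AAV-NDNF minus AAV-GFP, of the 61 motor genes with 95% confidence intervals from limma (x axis), one gene per line, with grey lines between roles. The left panel holds transport motors, light chains and dynactin, and the right panel ciliary, other and mitotic motors. All 61 intervals include 0, and the widest are those of scarce genes such as Kif23, Kif24 and Kif15.

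Kinesin-1 is built of heavy chains, its motor subunits, and light chains, and none of its 7 genes passed the test. Kif5a (chromosome 10, 127225696 to 127263348 on the minus strand, mm10), the neuronal form, stood at 24443, 29773 and 24784 in AAV-GFP and at 30744, 26342 and 20509 in AAV-NDNF. The lowest and the highest of the 6 values both came from AAV-NDNF libraries, and the group ranges overlapped. Its means were 26333 ± 2984 and 25865 ± 5134, and the log2 fold change was −0.04 with an interval of −0.37 to 0.29.

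Kif5c, the other form enriched in neurons, had 12665, 15035 and 12528 in AAV-GFP and 15057, 13983 and 12357 in AAV-NDNF. AAV-GFP 2 and AAV-NDNF 1 were high here too, and the log2 fold change was 0.04 (interval −0.22 to 0.31). Kif5b, the ubiquitous heavy chain, had 8267, 11130 and 8875 in AAV-GFP and 10242, 9620 and 8342 in AAV-NDNF, a log2 fold change of 0.00 (interval −0.29 to 0.30). All 3 heavy chains crossed 0 when single libraries were left out, Kif5a from −0.17 without AAV-NDNF 1 to 0.12 without AAV-NDNF 3.

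The light chains of kinesin-1 bind cargo. Klc1 had 11180, 11047 and 10670 in AAV-GFP and 10998, 11769 and 13030 in AAV-NDNF, a log2 fold change of 0.12 (interval −0.11 to 0.35). AAV-NDNF 3, the lowest library for Kif5a, was the highest for Klc1. Klc2 stood at 5555, 5652 and 5508 in AAV-GFP and at 6601, 6285 and 5999 in AAV-NDNF, with no overlap. Its means were 5571 ± 73.1 and 6295 ± 301, a log2 fold change of 0.18 (interval −0.05 to 0.40, limma adjusted p = 0.997). Klc3 and Klc4 had means of 193 ± 12.3 and 567 ± 18.4 in AAV-GFP and of 170 ± 22.2 and 539 ± 11.8 in AAV-NDNF, and their values overlapped between groups.

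Kinesin-3 motors carry synaptic vesicle precursors and dense-core vesicles. All 6 had log2 fold changes at or just below 0 (−0.13 to −0.00, median −0.04). Kif1a had 18456, 21758 and 17623 in AAV-GFP and 24037, 19410 and 13448 in AAV-NDNF, a log2 fold change of −0.06 (interval −0.46 to 0.35). The spread among treated libraries, 18965 ± 5309, was wider than that among controls, 19279 ± 2187. Kif1b, which also moves mitochondria, had 16224, 21214 and 17179 in AAV-GFP and 22079, 18560 and 14333 in AAV-NDNF, a log2 fold change of −0.00. In both genes AAV-NDNF 1 was the highest library and AAV-NDNF 3 the lowest. The direction of all 6 rests on single libraries: Kif1a moved to 0.17, Kif1b to 0.16, Kif13a to 0.19, Kif13b to 0.12 and Kif16b to 0.062 without AAV-NDNF 3, and Kif1c to 0.045 without AAV-GFP 2.

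Kinesin-2 works in axons and cilia, and the kinesin-4 motors Kif21a and Kif21b act on microtubule growth and dendritic transport. Kif3a, the common motor subunit of kinesin-2, had 1937, 1870 and 1858 in AAV-GFP and 2040, 2242 and 1912 in AAV-NDNF, a log2 fold change of 0.13 (interval −0.11 to 0.36). Its neuronal partner Kif3c had 3248, 3778 and 3424 in AAV-GFP and 4090, 3814 and 3354 in AAV-NDNF, a log2 fold change of 0.11 (interval −0.15 to 0.36). For both, AAV-NDNF 3 lay within the control range. Kif21a had 5084, 5217 and 5507 in AAV-GFP and 5634, 6600 and 5285 in AAV-NDNF, a log2 fold change of 0.14 (interval −0.11 to 0.39). Kif3b, Kif17 and Kif21b had log2 fold changes of −0.05, 0.02 and −0.06.

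**Figure D2:**
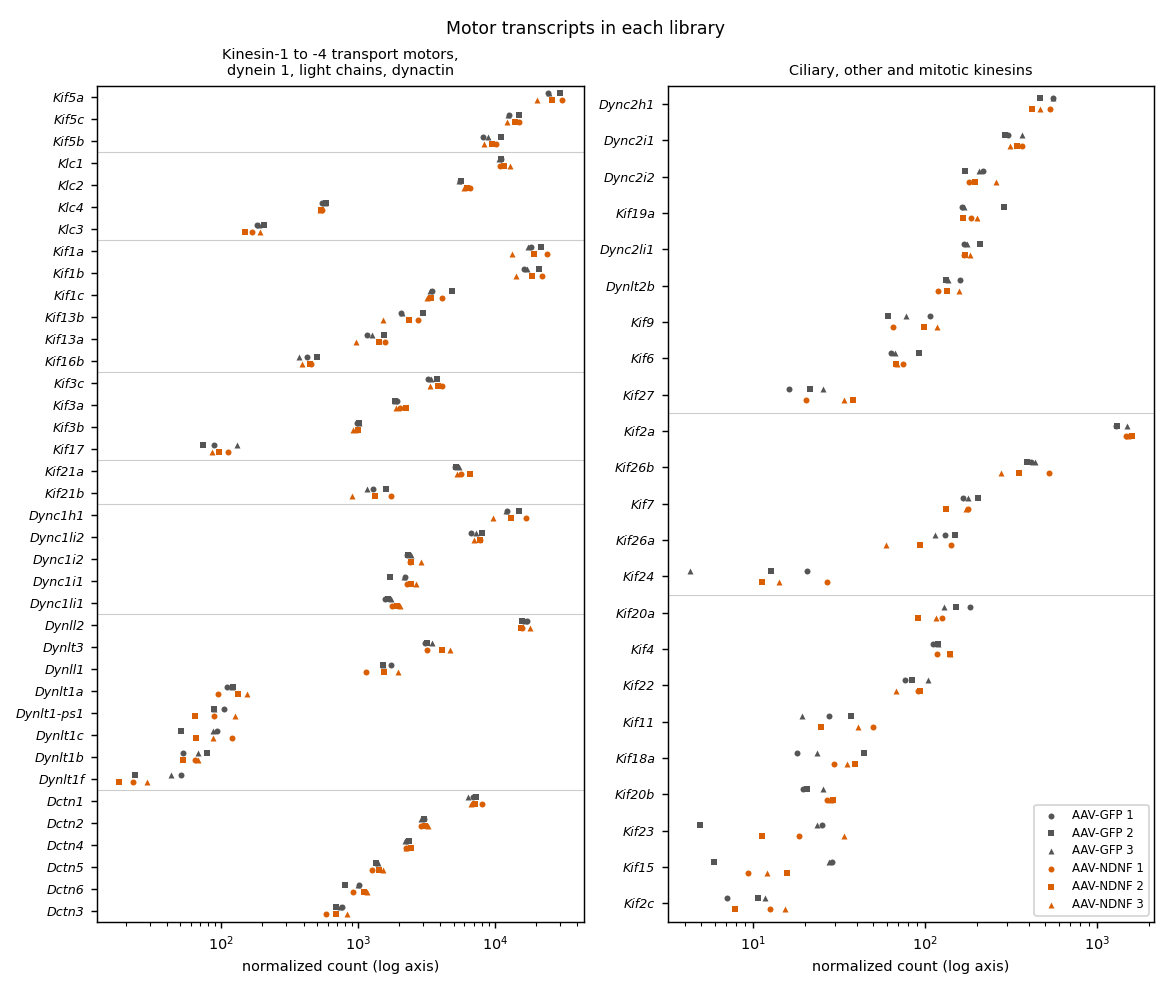
Normalized count (x axis, log axis) of each of the 61 motor genes in each library; AAV-GFP points are grey and AAV-NDNF points orange, and the marker shape gives the library. Kif5a, Kif1a and Dync1h1 are highest in AAV-NDNF 1 and lowest in AAV-NDNF 3, and Dync1i1 is higher in all AAV-NDNF libraries than in any AAV-GFP library. Of all genes, 4.26% are higher in all AAV-NDNF libraries in this way.

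Of the retrograde motor, the heavy chain overlapped between the groups, and 2 of the smaller subunits were higher in each AAV-NDNF library than in any control. None was called, and groups did not overlap in 8.20% of the 61 motor genes, against 9.75% of all genes. Dync1h1, the motor subunit of cytoplasmic dynein 1, had 12299, 15078 and 12006 in AAV-GFP and 17016, 13037 and 9635 in AAV-NDNF. Both extremes were again AAV-NDNF libraries, and the log2 fold change was −0.02 (interval −0.42 to 0.38). Dync1i1 (chromosome 6, 5725639 to 6028039 on the plus strand), the neuronal intermediate chain that binds dynactin, had 2209, 1725 and 2178 in AAV-GFP and 2271, 2436 and 2637 in AAV-NDNF. Its means were 2037 ± 271 and 2448 ± 183, and its log2 fold change was 0.27, a fold of 1.21 on that scale (interval of the log2 value −0.01 to 0.55), with the smallest p of the motor genes (limma adjusted p = 0.997). All 3 AAV-NDNF libraries were above all 3 controls. Without AAV-GFP 2, its lowest library and the one that stood apart in marker levels, the log2 fold change was 0.16.

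Dync1i2, the broadly expressed intermediate chain, had 2302, 2318 and 2447 in AAV-GFP and 2399, 2433 and 2881 in AAV-NDNF, a log2 fold change of 0.12 (interval −0.12 to 0.37). Only AAV-NDNF 3 exceeded every control. The light intermediate chain Dync1li1, which binds cargo adaptors, had 1582, 1664 and 1731 in AAV-GFP and 1771, 1922 and 2026 in AAV-NDNF, a log2 fold change of 0.20 (interval −0.04 to 0.43, limma adjusted p = 0.997). The groups did not overlap, although AAV-GFP 3 and AAV-NDNF 1 lay close together. Dync1li2 overlapped between groups, with a log2 fold change of 0.05.

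Dynactin links dynein to cargo and to the microtubule. Dctn1, its microtubule-binding arm, had 6921, 7351 and 6402 in AAV-GFP and 8060, 7167 and 6691 in AAV-NDNF, a log2 fold change of 0.08 (interval −0.17 to 0.33). Its values overlapped, with AAV-NDNF 1 the highest. Over the 6 dynactin genes, log2 fold changes ran from −0.08 for Dctn3 to 0.18 for Dctn6, with a median of 0.03, and all 6 intervals lay within a change of 1.5-fold.

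Dynein light chains of the LC8 type, Dynll1 and Dynll2, are small dimers that also serve many proteins outside dynein. Dynll1 had 1734, 1520 and 1532 in AAV-GFP and 1148, 1538 and 1960 in AAV-NDNF, a log2 fold change of −0.07 (interval −0.45 to 0.30). Its order in AAV-NDNF was the reverse of that of Kif5a. Dynll2 had 17308, 15874 and 16772 in AAV-GFP and 15749, 15473 and 18109 in AAV-NDNF, a log2 fold change of −0.02 (interval −0.26 to 0.22). Dynlt3, a light chain of the Tctex type, had means of 3256 ± 190 and 4007 ± 750, a log2 fold change of 0.28 (interval −0.03 to 0.59, limma adjusted p = 0.997), which was 0.16 without AAV-NDNF 3 and 0.44 without AAV-NDNF 1. The near-identical copies Dynlt1a, Dynlt1b, Dynlt1c and Dynlt1f and the pseudogene Dynlt1-ps1 are uncertain, since reads may be split among them or lost. They had means of 23.1 to 128 and log2 fold changes of −0.69 to 0.23, none past the test.

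A list of 42 motor adaptors and regulators, such as the dynein regulators Pafah1b1 and Ndel1 and the mitochondrial adaptors Trak1 and Rhot1, was measured beside the motors. A log2 fold change above 0 was found for 28 and one below 0 for 14, and 50.1% of all genes were above 0. The median log2 fold change was 0.05, and 0 were called by limma. An unadjusted limma p under 0.05 was given to 1 of the 42, against 4.68% of all genes. All AAV-NDNF libraries were above all controls for 2 of the 42 and below for 1, against 4.26% and 5.5% of all genes. The gene with the unadjusted p under 0.05 was Map7d2, a microtubule protein that recruits kinesin-1. It had 5513, 4641 and 5795 in AAV-GFP and 5870, 6539 and 6685 in AAV-NDNF, a log2 fold change of 0.26 (limma adjusted p = 0.997). The groups did not overlap, with AAV-GFP 3 just below AAV-NDNF 1.

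The list of 26 axonal motors was compared with the 9 mitotic kinesins that reached the level limit. It held kinesin-1, kinesin-2, kinesin-3 and kinesin-4 genes, dynein 1 and dynactin, but no dynein light chain. Klc3, Klc4, Kif1c and Kif16b were not on it. Their log2 fold changes were −0.18, −0.07, −0.13 and −0.01, so the counts above and below 0 depend on the choice of list. The median log2 fold change was 0.03 for axonal motors (17 above 0 and 9 below, range −0.13 to 0.27) and 0.23 for mitotic kinesins (6 above and 3 below, range −0.46 to 0.43). None of either list passed the test. Neuronal markers were measured beside them: 10 of 10 had a higher mean log2 value after AAV-NDNF (median log2 fold change 0.16, 0 with an unadjusted limma p under 0.05), and their part in the axonal values was not tested. The difference of the medians was −0.20, and it depended on single libraries. Without AAV-NDNF 3 the axonal median was 0.12, the mitotic median 0.07 and the difference 0.04. Without AAV-GFP 1 the mitotic median was 0.09 and the difference −0.09, and without AAV-GFP 2 the axonal median was 0.10 and the difference −0.09. The axonal median was 0.01 without AAV-GFP 1 and 0.02 without AAV-GFP 3. With at least 50 normalized counts required in 3 libraries, 3 mitotic kinesins were left, their median was −0.07 and the difference 0.10. Confidence intervals lay within a change of 1.5-fold for 24 of 26 axonal motors and 0 of 9 mitotic kinesins, against 55.2% of all genes. The median SE was 0.12 for axonal motors and 0.39 for mitotic kinesins.

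Mitotic kinesins were scarce. Per kb of annotated exon, AAV-GFP libraries held 1.88 normalized counts of Kif15 and 35.4 of Kif20a, the ends of the mitotic range, against 3767 ± 427 of Kif5a. Summed over these 9 genes, mitotic kinesins came to 496.4, 475.8 and 482.7 normalized counts in AAV-GFP and to 480.2, 452.9 and 489.6 in AAV-NDNF. The summed levels overlapped between groups.

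Kif20a (MKLP2), needed for cytokinesis, had 182.1, 150.5 and 128.2 in AAV-GFP and 126.2, 91.2 and 116.1 in AAV-NDNF. All AAV-NDNF libraries were below all controls, with AAV-NDNF 1 next to AAV-GFP 3. Its means were 154 ± 27.1 and 111 ± 18.0, a log2 fold change of −0.46 (interval −0.94 to 0.01, limma adjusted p = 0.997). The chromosome-binding kinesin Kif4 had 111.6, 118.2 and 119.6 in AAV-GFP and 116.9, 139.7 and 140.2 in AAV-NDNF, a log2 fold change of 0.18 (interval −0.24 to 0.60). AAV-NDNF 1 lay within the control range. Kif22, which also binds chromosome arms, had 76.8, 84.0 and 103.6 in AAV-GFP and 90.8, 93.5 and 67.9 in AAV-NDNF, a log2 fold change of −0.07 (interval −0.60 to 0.46).

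The other mitotic kinesins were at low counts. Kif11 (Eg5), which slides spindle poles apart, had 27.7, 37.1 and 19.2 in AAV-GFP and 49.6, 24.8 and 40.5 in AAV-NDNF, a log2 fold change of 0.43 (interval −0.43 to 1.29). Kif20b, active in cytokinesis, had 19.6, 20.5 and 25.6 in AAV-GFP and 26.9, 29.3 and 28.5 in AAV-NDNF, a log2 fold change of 0.36 (interval −0.42 to 1.14). Its groups did not overlap, but the gap between them was little more than the value of 1 read. Kif18a, which limits chromosome movement, had 17.9, 44.0 and 23.5 in AAV-GFP and 29.4, 39.4 and 35.1 in AAV-NDNF, a log2 fold change of 0.36 (interval −0.51 to 1.24). Kif23 (MKLP1), a subunit of centralspindlin, had 25.0, 4.9 and 23.5 in AAV-GFP and 18.5, 11.3 and 34.0 in AAV-NDNF, a log2 fold change of 0.39 (interval −1.04 to 1.81).

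Kif15, a second spindle kinesin, had 28.6, 5.9 and 27.8 in AAV-GFP and 9.3, 15.8 and 12 in AAV-NDNF, a log2 fold change of −0.46 (interval −1.83 to 0.91). In both Kif15 and Kif23, AAV-GFP 2, the library that stood apart in dorsal horn and oligodendrocyte markers, was the lowest of the 6. Without it the log2 fold change of Kif15 was −1.16 and that of Kif18a 0.72, and without AAV-GFP 1 they were −0.10 and 0.0927. Kif2c, which takes microtubules apart at kinetochores, had 7.1, 10.7 and 11.7 in AAV-GFP and 12.6, 7.9 and 15.3 in AAV-NDNF, a log2 fold change of 0.23 (interval −0.96 to 1.43). The intervals of these 6 genes each reached past a doubling or a halving, so changes of that size lie within the error at this depth.

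**Figure D3:**
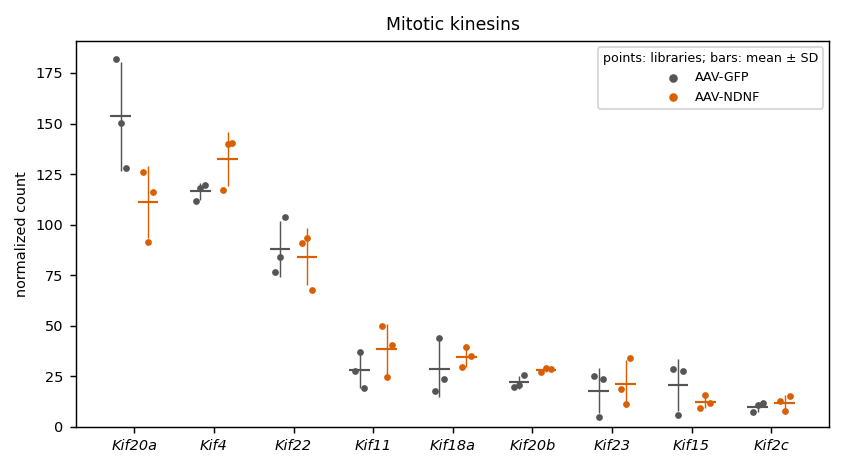
Normalized counts of the 9 mitotic kinesins in each library (points, y axis), with the mean and SD of AAV-GFP (grey) and AAV-NDNF (orange). The groups overlap in 7 genes, while Kif20a is lower and Kif20b higher in every AAV-NDNF library. Over all genes, the groups do not overlap in 9.75%, and no mitotic kinesin passed the test.

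A list of 20 other proliferation genes, of which 18 were tested, was set beside the mitotic kinesins. Of these 18, 4 had a higher mean log2 value after AAV-NDNF and 14 a lower one, with a median log2 fold change of −0.09 and 0 with an unadjusted limma p under 0.05. Log2 fold changes ran from −0.97 for Bub1 to 0.54 for Birc5. The list sums are dominated by Anln, a cytokinesis gene also expressed in myelinating glia, so they do not measure dividing cells.

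None of the ciliary motors and remaining kinesins passed the test. Dync2h1, the heavy chain of the dynein that works inside cilia, had means of 525 ± 52.6 in AAV-GFP and 473 ± 56.4 in AAV-NDNF, a log2 fold change of −0.15 (interval −0.46 to 0.16). Over the 9 ciliary motors the log2 fold changes ran from −0.15 to 0.50, the upper end being Kif27 at 21.1 ± 4.80 and 30.8 ± 9.45 counts. Ependymal cells bear motile cilia, and 7 of 8 tested markers of them had a higher mean log2 value after AAV-NDNF, and all 9 listed markers summed to 1021 to 1165 in AAV-GFP and 990 to 1575 in AAV-NDNF. Their part in the ciliary values was not tested. Among other kinesins, the microtubule depolymerase Kif2a had a log2 fold change of 0.17, the Hedgehog regulator Kif7 one of −0.18, Kif24 one of 0.58 (interval −0.79 to 1.95), Kif26a one of −0.49 (interval −1.14 to 0.16) and Kif26b one of −0.16.

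Levels of different motors can be ordered per kb of annotated exon. Dynll2 had the highest level in AAV-GFP, 6086 ± 265 normalized counts per kb, followed by Kif5a with 3767 ± 427, Klc1 with 2694 ± 64.9, Kif1a with 2066 ± 234 and Kif5c with 1878 ± 197. Kif1a and Kif5c, neighbours in this order, overlapped within their SDs. Klc2 (1348 ± 17.7), Dynlt3 (1264 ± 73.8), Dync1li2 (1221 ± 119) and Kif5b (1181 ± 189) lay close together. The dynein heavy chain Dync1h1 came to 838 ± 108 per kb, below the light intermediate chain Dync1li2 and above the intermediate chain Dync1i1 at 570 ± 75.8. The mitotic kinesins lay at or below the 35.4 of Kif20a.

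The makeup of each motor was measured as the share of each paralogue. Of the summed kinesin-1 heavy chain counts per kb, Kif5a made up 55.5%, 54.9% and 55.3% in AAV-GFP and 56.5%, 54.4% and 51.4% in AAV-NDNF. Control libraries agreed within 1 percentage point, and AAV-NDNF 3 had the lowest share. The means were 55.2 ± 0.288% and 54.1 ± 2.55% (exact two-sided permutation p = 0.7, adjusted p = 0.933). Dync1i1 made up 66.5 ± 2.93% of the dynein intermediate chain counts per kb in AAV-GFP and 68.9 ± 0.973% in AAV-NDNF. Before division by length, Dync1i2 had the higher AAV-GFP mean (2356 ± 79.7, against 2037 ± 271 for Dync1i1). The share of Dync1i1 thus depended on the annotated lengths, 3.57 kb for Dync1i1 and 8.28 kb for Dync1i2. Kif1a made up 56.9 ± 1.57% and 56.6 ± 2.73% of the Kif1 counts per kb. Of 12 shares tested, the smallest exact permutation p was 0.2, for the share of Kif3b in Kif3b and Kif3c (27.6 ± 1.17% and 25.4 ± 1.30%, a difference of −2.16 percentage points that exceeded both SDs), with adjusted p-values of 0.933 to 1. With 3 libraries against 3, this test cannot go below 0.1, so it says nothing of equal shares.

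**Figure D4:**
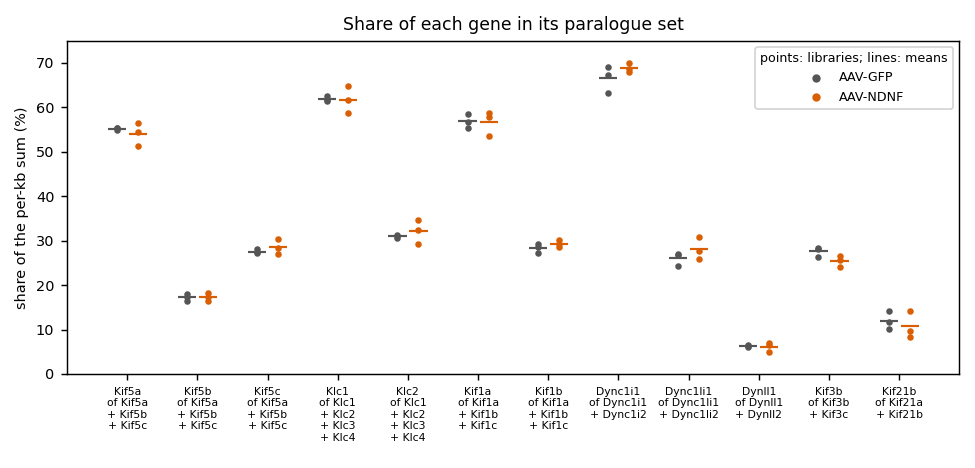
Share of each gene in the summed counts per kb of its paralogue set (y axis, percent) in each library (points), with the mean of AAV-GFP (grey) and of AAV-NDNF (orange). Kif5a takes 51.4% to 56.5% of the kinesin-1 heavy chain sum in every library.

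Motor genes varied between libraries of the same treatment by annotated exon length, a pattern noticed in the data. From AAV-NDNF 1 to AAV-NDNF 3 the ratio of values was 0.519 for Kif21b, 0.551 for Kif13b, 0.56 for Kif1a, 0.566 for Dync1h1 and 0.667 for Kif5a, whose annotated exons span 12.2, 13.02, 9.33, 15.7 and 6.99 kb. In the same pair it was 1.71 for Dynll1 (3.89 kb), 1.46 for Dynlt3 (2.58 kb) and 1.43 for Dctn3 (1.04 kb). These are examples from both ends. Of the 29 motor genes longer than the median of 5.57 kb, 22 were lower in AAV-NDNF 3 than in AAV-NDNF 1 and 7 higher, among them Dync1i2 (8.28 kb, a log2 difference of 0.26), Kif23 (7.90 kb, 0.84) and Kif15 (11.02 kb, 0.35). Of the other 29, 8 were lower and 21 higher.

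Across genes, which are not independent replicates, Spearman's rho between length and the AAV-NDNF 3 minus AAV-NDNF 1 difference was −0.76 over the 26 axonal motors, −0.56 over the 58 motor genes with an annotated length and −0.31 over 17201 genes. The trend was thus also present in all genes. It was not the same in every library: over axonal motors, rho between length and the deviation from the mean of all 6 libraries was 0.75 in AAV-GFP 2, 0.71 in AAV-NDNF 1 and −0.73 in AAV-NDNF 3, and −0.37, −0.45 and −0.17 in AAV-GFP 1, AAV-GFP 3 and AAV-NDNF 2. The 6 deviations of a gene sum to 0, so they are not independent. The group log2 fold change had a rho with length of −0.51 over the axonal motors, 0.01 over the 58 motor genes and −0.02 over all genes. The sum of 10 neuronal markers was highest in AAV-NDNF 3 (235118, against 196696 in AAV-NDNF 1), the library where Kif5a was lowest. Not all of them rose: Rbfox3 had 1999.2 in AAV-NDNF 1 and 1583.9 in AAV-NDNF 3, and Eno2 had 12330.7 and 12283.7. The sum of 8 motor neuron markers was 10847.1 in AAV-NDNF 1 and 10364.6 in AAV-NDNF 3. The part of neuron content in the length trend was not tested.

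**Figure D5:**
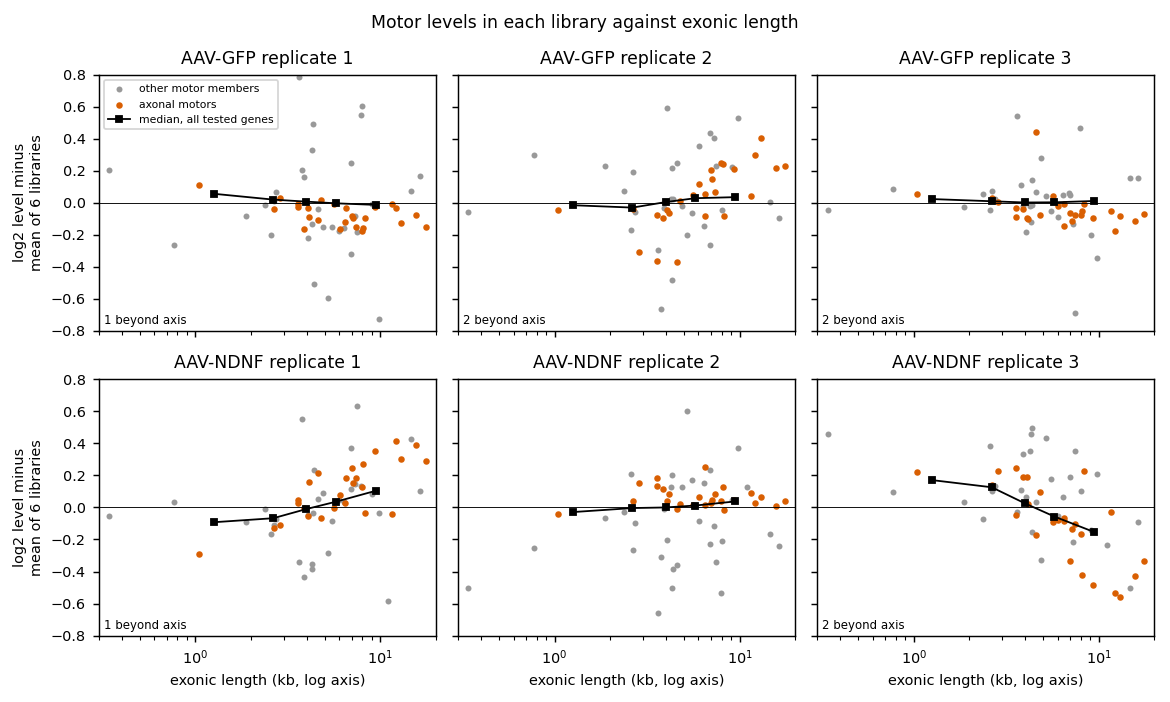
Log2 level of each motor gene minus its mean over the 6 libraries (y axis) against annotated exon length (kb, log x axis), one panel per library, with axonal motors in orange, other motor genes in grey and black squares for the medians of all genes in 5 length classes. The axonal motors fall with length in AAV-NDNF 3 (rho −0.73) and climb with it in AAV-NDNF 1 (0.71) and AAV-GFP 2 (0.75); the few points beyond the axis are counted in each panel.

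When the trend of log2 values with length was removed from each library, an alternative chosen after seeing the data, the median SD within groups went from 0.14 to 0.11 over the axonal motors (smaller in 20 of 26) and from 0.40 to 0.40 over the mitotic kinesins (smaller in 5 of 9). It went from 0.22 to 0.21 over all genes. The axonal median was then 0.04 and that of the mitotic kinesins 0.24. Dync1i1 (0.27, limma adjusted p = 0.876) and Dynlt3 (0.27, limma adjusted p = 0.862) had an unadjusted p under 0.05, against 5.31% of all genes, and no motor gene was called. What set the length trend apart between libraries was not tested.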

How the data were processed

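Poly-A selected RNA of 6 ventral lumbar cord samples was sequenced on an Illumina instrument, as the labels' protocols state. cutadapt, HISAT2, HTSeq and DESeq2, with build mm10, are the tools listed in the submitters' processing notes; no source used here states their versions, the annotation or the strand setting. The deposited value of a gene in a library is a normalized signal: the authors divided its count by a size factor of that library. All values (100%, tolerance 0.001) were whole multiples of 1 read's value, and whole reads were recovered for the count tests. The authors' deposited log2 fold changes, test score and p-values, named in the file headers, come from DESeq2.

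The main test was limma 3.58.1 in R 4.3.3 (mean-variance trend, robust variances, two-sided) on log2(value + 1), in the 17480 genes that reached 10 normalized counts in 3 or more libraries. A larger pseudocount drew log2 fold changes of scarce genes towards 0: Kif24 was 0.61 with 0.5, 0.58 with 1 and 0.42 with 5. Set against edgeR, the limma values of scarce genes were not all smaller. Kif24 was 0.47 with edgeR, and Kif15 was −0.76 with edgeR and −0.46 with limma. Alternatives were edgeR 4.0.16, which called 0 genes on recovered reads, DESeq2 1.42.0, other scalings, filters and pseudocounts, a replicate block, leaving out each library and removal of a length trend (loess, span 0.3, added after seeing the data). Exon lengths come from GENCODE M21 (mm10), with a match for 27638 of 28162 symbols (98.1%) and 58 of the 61 motor genes. Paralogue shares were compared by exact permutation.

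The genes and lists were chosen with earlier results of these data known. Values in each library are given for a fixed core of 16 axonal motors and light chains, all mitotic kinesins and any motor gene with an unadjusted limma p under 0.05. Dync1li1 and Map7d2 were added after their values were seen. Scripts were tested on simulated data. Each pair of libraries differed by more than sampling noise (chi-square per gene 4.23 to 45.3), and no sequencing batch is known from the labels.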

Additional observations from a re-analysis of the deposited data

How the results depend on the processing

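No motor gene was called under any of the 16 alternatives, edgeR and DESeq2 included. Over all genes, limma called 3 with at least 1 normalized count in 1 library, DESeq2 called 55 and the fit with the replicate number as a block called 6. Leaving out 1 library gave 0 to 43 calls. Same-numbered libraries did not deviate together (r = −0.09, 0.05 and 0.08), and other pairs ran from −0.15 to 0.13. No pairing by number was seen, but 3 libraries in each group cannot exclude one. The block left the axonal median at 0.0346, the mitotic median at 0.23, their difference at −0.20 and the calls of motor genes at 0. With at least 50 normalized counts in 3 libraries the mitotic median was −0.0702 and the difference 0.10, since 3 mitotic kinesins were left. On leaving out 1 library the axonal median ran from 0.0064 to 0.12, the mitotic median from 0.0747 to 0.27 and the difference from −0.24 to 0.0438.

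Of 964 fold changes of single motor genes under the alternatives, 895 kept their direction and 69 did not, 56 of these on leaving out a library. They belong to 32 genes, with sizes up to 0.39 (Kif23), and 29 genes kept their direction throughout. Apart from leaving out libraries, the changes of direction were close to 0. Dync1h1 was 0.0115 with DESeq2, 0.00607 with edgeR and 0.00442 with the length trend removed. Kif13a was 0.00204 with DESeq2, Kif16b 0.00903 with the length trend removed, and Kif17 −0.00308 with DESeq2 and −0.00809 with edgeR. Kif1b was 0.00964, 0.00416 and 0.0231 with DESeq2, edgeR and the length trend removed. Kif5b was −0.00319, −0.00226 and −0.00881 with DESeq2, TMM scaling and edgeR. On leaving out each library in turn, the log2 fold change passed 0 for Kif5b (−0.0854 to 0.13), Dync1h1 (−0.22 to 0.19), Kif17 (−0.16 to 0.25), Kif1b (−0.15 to 0.16), Kif13a (−0.16 to 0.19), Dynlt2b (−0.17 to 0.028), Dync1li2 (−0.025 to 0.12), Dynll2 (−0.0922 to 0.0213), Dynlt1-ps1 (−0.31 to 0.17), Dync2i2 (−0.0697 to 0.19) and Dync2li1 (−0.14 to 0.0172). The same held, with the lowest and highest values in brackets, for Kif19a (−0.27 to 0.14), Kif6 (−0.16 to 0.10), Kif9 (−0.0121 to 0.42), Dynlt1b (−0.23 to 0.0465), Dynlt1c (−0.0397 to 0.45), Kif5a (−0.17 to 0.12), Kif13b (−0.31 to 0.12), Kif16b (−0.11 to 0.10), Kif1a (−0.25 to 0.17), Kif1c (−0.23 to 0.0446) and Kif23 (−0.31 to 0.76). It held too for Kif21b (−0.28 to 0.19), Dctn4 (−0.0305 to 0.0345), Kif5c (−0.0236 to 0.13), Kif22 (−0.16 to 0.0747), Dctn3 (−0.20 to 0.053), Dynll1 (−0.26 to 0.12), Dctn2 (−0.00511 to 0.0778), Dctn5 (−0.0266 to 0.11), Dynlt1a (−0.066 to 0.29) and Kif26b (−0.41 to 0.0561). The cause was not tested. Of the 29 genes that kept their direction on every alternative, 21 moved by over 1.5 times on leaving out a library, among them Kif24 (0.0138 to 1.03), Kif26a (−0.80 to −0.18), Kif27 (0.33 to 0.77), Kif15 (−1.16 to −0.10), Kif18a (0.0927 to 0.72), Kif11 (0.19 to 0.71), Kif2c (0.036 to 0.48) and Dynlt3 (0.16 to 0.44), and 8 did not.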
